A study of Sus scrofa with 12 samples.

Results

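The microRNA family of miR-148 and miR-152 has 3 members in the pig libraries studied here, ssc-miR-148a-3p, ssc-miR-148b-3p and ssc-miR-152. They were taken as the deposited identifiers that carry exactly these names, and are 3 of 5850 small RNA identifiers and 3 of 337 known microRNAs. All 3 passed the filter on low counts. The 5p arms of the miR-148a and miR-148b precursors were also listed and are given beside their 3p arms.

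MicroRNAs of this family share their seed, the short stretch near the 5′ end that pairs with target messenger RNAs, and so can bind many of the same sites. In human and mouse cells, reported targets include DNMT1, which maintains DNA methylation when cells divide, and for miR-148a the LDL receptor and the cholesterol exporter ABCA1. In mice, miR-148a also acts on the tolerance checkpoint of B cells, and it is among the most abundant microRNAs of mammalian milk.

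Small RNA of the small intestine was sequenced from pigs of the breed given as Big white, in 12 libraries, to examine the effect of weaning. In the feeding group (3 libraries) the sow still nursed the piglets past 21 days of age. The 1-day, 3-day and 7-day groups, with 3 libraries each, had been weaned for 1, 3 or 7 days past that age. Nothing in the labels gives the segment of intestine, the animal or the litter behind a library. P-values therefore measure only how much libraries differ, which may be technical. Age goes with days of weaning among the weaned groups, so the effects of age and weaning cannot be told apart there, and the feeding piglets' age at sampling is not given.

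The depth was 24670093 to 27784417 counts per library, and known microRNAs took 6987325 to 18331061 of them. One library, 7-day replicate 1, differed from the rest, with 62.17% of its counts in totals that name no small RNA, against 19.96% to 43.18% elsewhere. The gut epithelium microRNAs miR-194b-5p and miR-192 were the most abundant known microRNAs. They averaged 93070 and 90810 normalised CPM (counts scaled to a common size of the named small RNAs, with TMM factors). The summed level of the 4 gut epithelium markers was 54230 to 98280 normalised CPM in the 7-day group, 221100 to 481500 in the feeding group, 130400 to 231600 in the 1-day group and 269800 to 327200 in the 3-day group. Because whole tissue was measured, fewer cells of a type and less RNA per cell cannot be told apart.

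The precursors lie at separate places in the genome. In the RefSeq annotation of build Sscrofa11.1, MIR148A spans 46415213 to 46415280 on chromosome 18, inside no protein-coding gene, with NFE2L3 164904 bases away on the nearer side. MIR148B spans 19530990 to 19531069 on chromosome 5, within COPZ1, which encodes a coatomer subunit of vesicle transport. MIR152 spans 24292249 to 24292328 on chromosome 12, within COPZ2, the gene of the paralogous subunit. Exons and strand were not analysed here. The mature 3p sequences are near-identical, and no source used here says how reads matching more than 1 name were assigned, so the split between members is uncertain.

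All members were detected in every library, at levels near the middle of the known microRNAs. Over the 12 libraries ssc-miR-148a-3p averaged 156 ± 40.5 normalised CPM (SD), rank 122 of the 295 known microRNAs tested. It lay between miR-126-5p at 167.6 and miR-30a-3p at 155.1 normalised CPM, 597-fold below miR-194b-5p. The other members were about as abundant as each other. Ssc-miR-152 averaged 83.0 ± 29.0 normalised CPM, rank 141, between miR-199b-5p at 83.02 and miR-18a at 81.4. Ssc-miR-148b-3p averaged 77.5 ± 23.9 normalised CPM, rank 145, between miR-2320-3p at 79.33 and miR-9 at 74.12.

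Although miR-148a is known for its abundance in milk, its level in this tissue was modest. Of 19 tested microRNAs on a list of those abundant in milk, miR-148a-3p had the lowest mean level. The top of that list was held by miR-191 at 65450, miR-26a at 55420 and miR-21 at 53310 normalised CPM.

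The 3p arm made up nearly all counts of both precursors with a listed 5p arm. Its share was 97.54% to 99.43% of the counts of miR-148a and 95.86% to 99.27% of those of miR-148b. The 5p arms, miR-148a-5p and miR-148b-5p, averaged 2.05 and 1.31 normalised CPM. The lowest 3p share of miR-148b, 95.86% (Wilson 95% interval 92.75% to 97.68%), was in 7-day replicate 1, where only 11 counts of the 5p arm were seen. Wilson and Poisson intervals cover counting error only.

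MiR-148a-3p varied more among the feeding libraries than its mean varied among the 4 groups, and its lowest mean was at 3 days. In the feeding group its normalised CPM was 128.2, 170.4 and 234.0. It was 155.3, 141.3 and 219.9 after 1 day of weaning, and 126.2, 83.34 and 143.1 after 3 days. After 7 days it was 150.7, 147.5 and 170.6. On this scale the highest feeding library lay above all weaned libraries. With library sizes and TMM factors from known microRNAs alone, 7-day replicate 1 was above it, at 280.0 against 267.8. The lowest value of all was in the 3-day group, but every weaned group overlapped the feeding group. Counts behind these values ran from 1310 to 4890, so counting error was small beside the spread.

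MiR-148b-3p had similar means in the feeding, 1-day and 3-day groups and a lower one in the 7-day group. In the feeding group it was at 98.57, 90.72 and 74.99 normalised CPM. It was at 71.04, 79.71 and 106.1 after 1 day, and at 76.03, 94.6 and 90.56 after 3 days. After 7 days it was at 15, 76.7 and 56.56. The 7-day group held its 2 lowest values of all libraries, and its highest library lay within the range of the feeding group.

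MiR-152 was at 91.03, 64.07 and 87.14 normalised CPM in the feeding group. It was at 96.95, 77.99 and 76.71 after 1 day, and at 89.8, 106.8 and 99.96 after 3 days. After 7 days it was at 12.29, 62.98 and 130.1. The 7-day group held both the lowest and the highest level of miR-152 in the study, so its range took in every other group.

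Over the 12 libraries, miR-148b-3p varied like other microRNAs of its level, and its spread depended on 7-day replicate 1. Its coefficient of variation was 30.9%, against a median of 30.9% for the 46 known microRNAs within 2-fold of its mean, and 17.1% without that library, against a median of 26.3%. For miR-152 it was 34.9% against a median of 28.8% over 12 libraries, and 21.7% against 25.8% over 11. For miR-148a-3p it was 25.96% against 33.7% over 12 libraries, and 27.1% against 27.1% over 11. These are descriptions, with no test.

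**Figure D1:**
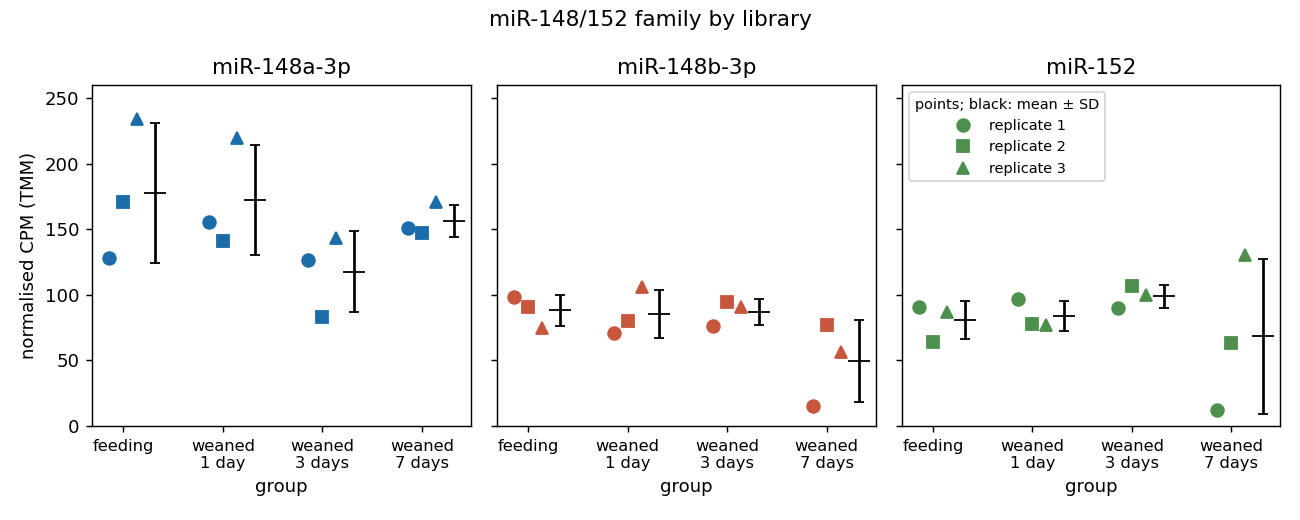
Normalised CPM (linear axis from 0) of the 3 family members in the 4 groups, with 1 point per library (circle, square and triangle for replicates 1, 2 and 3) and black bars for mean ± SD. The circle of the 7-day group is low for miR-148b-3p (15) and miR-152 (12.29) but not for miR-148a-3p (150.7).

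No member passed the test in any comparison of weaned with feeding libraries, at an adjusted p under 0.05 in edgeR's quasi-likelihood test. One day after weaning the differences were near 0. MiR-148a-3p averaged 172 ± 41.9 normalised CPM against 178 ± 53.2 in the feeding group (SD, n = 3), a log2 difference of -0.04 ± 0.37 (SE, edgeR). MiR-148b-3p differed by -0.04 ± 0.51 and miR-152 by 0.05 ± 0.62 on the log2 scale. The adjusted p of each member was 1 by edgeR, and 0 of 3 were called, where the background was 0.0% of 2453 tested small RNAs.

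After 3 days of weaning miR-148a-3p averaged 118 ± 30.8 normalised CPM, against 178 ± 53.2 in the feeding group (SD, n = 3). Its log2 difference was -0.59 ± 0.37 (SE), with a 95% interval from -1.4 to 0.21 and an edgeR adjusted p of 0.573. MiR-148b-3p was at 87.1 ± 9.76 against 88.1 ± 12.01 normalised CPM, a log2 difference of -0.02 ± 0.51. MiR-152 was at 98.8 ± 8.53 against 80.7 ± 14.6 normalised CPM, with a log2 difference of 0.29 ± 0.62. Again 0 of 3 members were called, against a background of 0.0%.

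After 7 days of weaning the largest difference of the family, with all libraries in the fit, was that of miR-148b-3p, with 49.4 ± 31.5 against 88.1 ± 12.01 normalised CPM (SD, n = 3). The log2 difference was -0.83 ± 0.52 (SE), with a 95% interval from -1.97 to 0.3 and an edgeR adjusted p of 0.506. Without 7-day replicate 1 its difference was -0.40 on the log2 scale, and without 7-day replicate 2 it was -1.31. MiR-152 averaged 68.4 ± 59.1 against 80.7 ± 14.6 normalised CPM, a log2 difference of -0.24 ± 0.62, which was 0.26 without 7-day replicate 1 and -1.11 without 7-day replicate 3. MiR-148a-3p averaged 156 ± 12.5 against 178 ± 53.2 normalised CPM, a log2 difference of -0.18 ± 0.37. Here 0 of 3 members were called, against a background of 0.0408%, which is 1 of 2453 small RNAs.

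With all weaned libraries set against feeding, the intervals give what sizes the fit of all small RNAs still allows. The 95% interval for miR-148a-3p ran from 0.528-fold to 1.3-fold, and that for miR-148b-3p from 0.435-fold to 1.52-fold. For miR-152 it ran from 0.472-fold to 2.23-fold. A level 2-fold higher after weaning thus lay outside the intervals of miR-148a-3p and miR-148b-3p, and inside that of miR-152. A level 2-fold lower lay inside the intervals of miR-148b-3p and miR-152, and just outside that of miR-148a-3p. For 3 days against feeding alone, the interval of miR-148a-3p reached down to 0.378-fold. None of the 3 was called, against a background of 0.0%, and each edgeR adjusted p was 1. In a fit of known microRNAs alone, the all-weaned interval was 0.582-fold to 1.3-fold for miR-148a-3p and 0.513-fold to 1.31-fold for miR-148b-3p. For miR-152 it was 0.553-fold to 1.95-fold, so 2-fold changes lay outside all of these. With 7-day replicate 1 also left out, chosen after seeing the data, miR-148b-3p had 0.664-fold to 1.18-fold and miR-152 0.801-fold to 1.64-fold. Whether a 2-fold change lay inside thus depended on the fit.

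Between the weaned groups no member was called either, against a background of 0.0% in each of these comparisons. From 1 to 3 days miR-148a-3p differed by -0.55 ± 0.37 (log2, SE, edgeR adjusted p 0.627). From 1 to 7 days miR-148b-3p differed by -0.79 ± 0.52 (edgeR adjusted p 0.494), the lowest adjusted p of any member. From 3 to 7 days miR-148a-3p differed by 0.41 ± 0.37, miR-148b-3p by -0.82 ± 0.52 and miR-152 by -0.53 ± 0.63 on the log2 scale. The value of miR-152 was -0.04 without 7-day replicate 1 and -1.40 without 7-day replicate 3. That of miR-148b-3p was -0.39 without replicate 1 and -1.29 without replicate 2. The edgeR test among the 4 groups gave adjusted p-values of 0.806 for miR-148a-3p, 0.796 for miR-148b-3p and 1 for miR-152, with a background of 0.0%. In 21 pairwise results the members passed an unadjusted p of 0.05 in 0 by edgeR, 0 by DESeq2 and 0 by limma, where 3.02% to 10.1% of all small RNAs did by edgeR. Without 7-day replicate 2 there were 2 such results, both of miR-148b-3p, and without replicate 3 there was 1, of miR-152, none of them past the adjusted threshold.

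**Figure D2:**
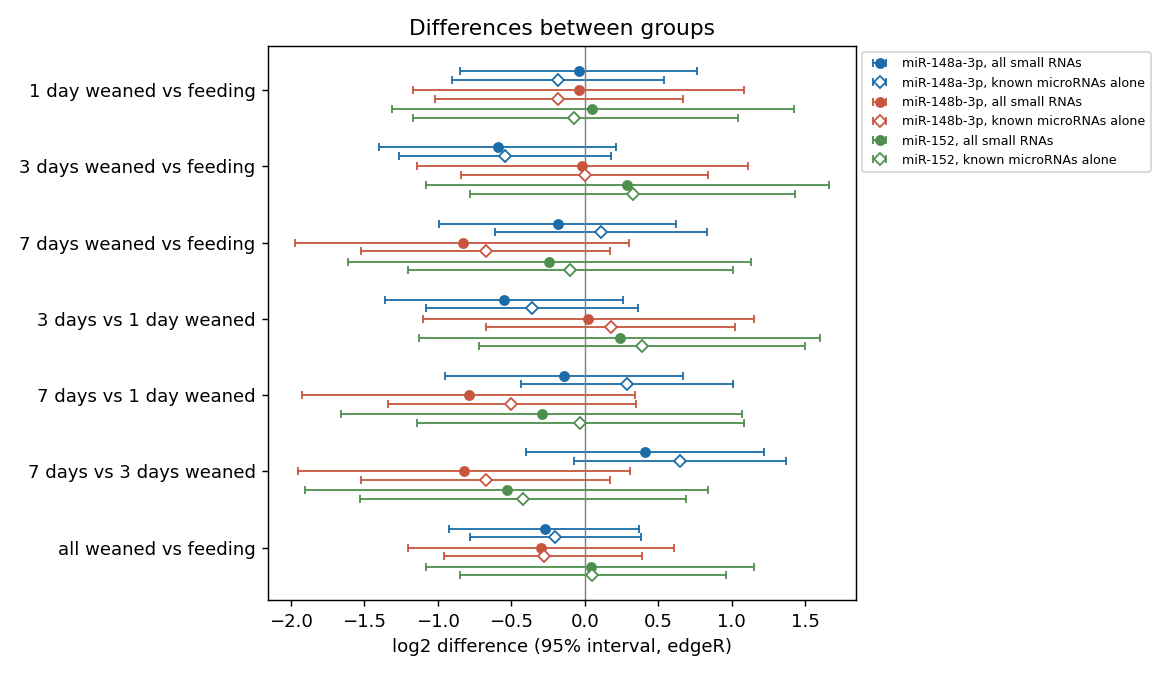
Log2 difference of each family member in 7 comparisons of groups (edgeR), with 95% intervals as lines, from the fit of all small RNAs (filled circles) and that of known microRNAs alone (open diamonds). Every interval includes 0, and the lowest reaches -1.97, for miR-148b-3p in the 7-day group against feeding.

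The ranges of a member in the groups compared were separate in 1 of 21 results by normalised CPM. MiR-148a-3p was at 147.5 to 170.6 in the 7-day group and at 83.34 to 143.1 in the 3-day group, and 5.01% of all small RNAs tested had separate, higher ranges in this comparison. With library sizes and TMM factors from known microRNAs alone, 4 of 21 were separate. There miR-152 was at 115.2 to 130.4 in the 3-day group, above 82.24 to 106.2 in feeding, as were 9.15% of known microRNAs. It was also above 81.57 to 104.3 in the 1-day group, as were 11.2%. In the 7-day group miR-148a-3p lay above the 3-day group (a background of 7.46%) and miR-148b-3p below it (10.5%). By the deposited TPM 1 of 21 was separate, miR-148a-3p at 48.88 to 103.0 in the 3-day group, below 106.9 to 155.2 in the 1-day group, as were 8.32% of small RNAs. Each of these backgrounds, 5.01% to 11.2%, covers 1 direction of 1 comparison. The counts out of 21 take in both directions and all comparisons, so they cannot be set against these backgrounds. Which result was separate differed with the scale.

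The order of the groups for miR-148a-3p differed with the scale as well. On the scale of all small RNAs the means ran from 118 after 3 days to 156 after 7 days, 172 after 1 day and 178 in the feeding group. On the scale of known microRNAs alone the 7-day group was the highest, at 229 ± 46.1, against 212 ± 59.3 in the feeding group. The log2 difference of miR-148a-3p at 7 days against feeding was then 0.11 ± 0.33 in place of -0.18 ± 0.37. On both scales the 3-day group had the lowest mean, 118 ± 30.8 and 146 ± 49.6. The mean ± SD of neighbouring groups overlapped, though the ranges of the 3-day and 7-day groups were separate, as given above. In the fit of all small RNAs the median log2 difference at 7 days was 0.32 over all of them and -0.24 over known microRNAs. In the fit of known microRNAs alone it was 0.0020.

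As a sum, the family held 3026 to 8571 counts per library, 0.0261% to 0.0625% of the known microRNA counts. Its summed level was 346 ± 43.2 normalised CPM in the feeding group and 342 ± 54.2 after 1 day. It was 303 ± 26.4 after 3 days and 274 ± 90.3 after 7 days, with 178 in 7-day replicate 1 and 287.2 and 357.2 in the others. As a share of known microRNA counts the order differed, with the highest mean after 7 days, 0.0487% ± 0.0121. That mean was 0.0377% ± 0.00945 in the feeding group, 0.0385% ± 0.005 after 1 day and 0.0322% ± 0.00535 after 3 days. MiR-148a-3p was the most counted member in 11 of 12 libraries, and miR-152 in the other, 3-day replicate 2. The share of miR-148a-3p within the family averaged 50.6% in the feeding group, 49.97% after 1 day, 38.5% after 3 days and 61.3% after 7 days. Without 7-day replicate 1, at 84.7%, the 7-day mean was 49.56% (n = 2), close to that of feeding.

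**Figure D3:**
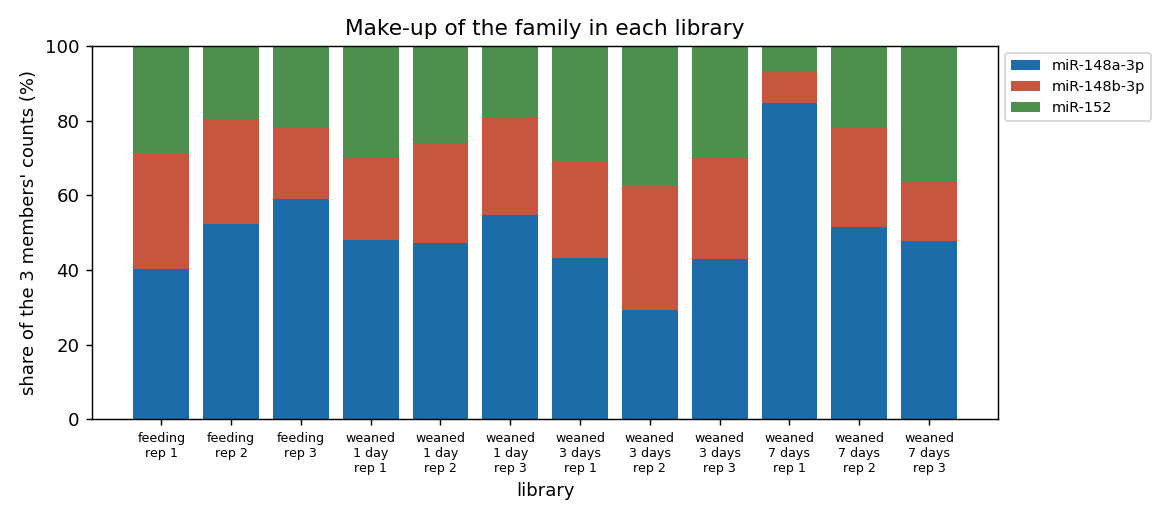
Share of the counts of the 3 members (percent) held by each in every library, as stacked bars. MiR-148a-3p holds 29.3% to 59.1% in 11 libraries and 84.7% in 7-day replicate 1.

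The members were split in 7-day replicate 1. MiR-148b-3p had 255 counts there (exact Poisson 95% interval 224.7 to 288.3), and its 15 normalised CPM was 3.77-fold below the lowest of the other 11 libraries. MiR-152 had 209 counts (181.6 to 239.3), and its 12.29 normalised CPM was 5.12-fold below the lowest other library. MiR-148a-3p, at 150.7 normalised CPM, lay near the median of the others, 147.5. On the scale of known microRNAs alone, miR-148a-3p was at 280.0 in this library, above the others at 89.9 to 267.8. On that scale miR-148b-3p was at 27.87, against 71.85 in the lowest other library, and miR-152 at 22.84, against 81.22. The ratio of miR-148a-3p to miR-148b-3p was 10.05 in this library and 0.881 to 3.12 in the others.

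The pair that was low shared this with many microRNAs of that library. Of 158 known microRNAs with a mean of at least 50 normalised CPM, 75 were below all 11 other libraries there. As far below as miR-152, or farther, were 17 of them, and as far below as miR-148b-3p were 19, each count including the member itself. Among the 295 tested known microRNAs ordered by their distance from the median of the other libraries, miR-152 came 28th from the bottom, miR-148b-3p 34th and miR-148a-3p 243rd. The part of this library's high share of unnamed counts in these low values was not tested.

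**Figure D4:**
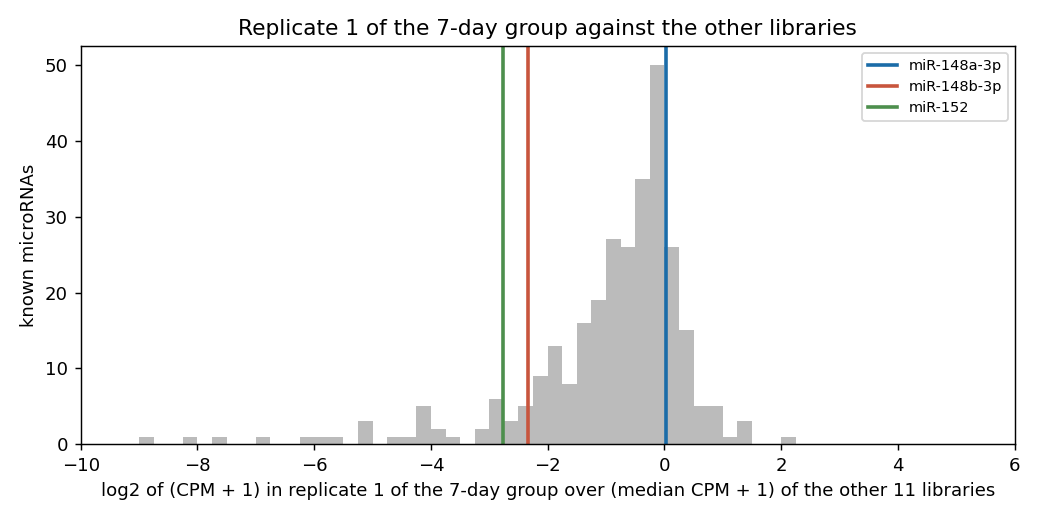
Histogram of the log2 ratio of (CPM + 1) in 7-day replicate 1 to the median of the other 11 libraries, over the 295 known microRNAs tested, with a coloured line for each family member. MiR-152 (-2.77) and miR-148b-3p (-2.34) lie in the low tail and miR-148a-3p (0.03) lies near 0.

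Members did not follow each other across libraries in a way that held without this library. The correlation of log2(CPM + 1) between miR-148b-3p and miR-152 was 0.84 over 12 libraries and -0.4 over the 11 without it. MiR-148a-3p had correlations of -0.05 with miR-148b-3p and -0.09 with miR-152 over 12 libraries. Both values of a pair come from the same library, with its depth and scaling, and the libraries fall into groups, so the correlations are descriptions.

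Outside the family, the pattern of miR-148a-3p was most like that of miR-142-3p, a microRNA of blood cells, among 136 candidates of at least 100 normalised CPM. Pearson's r of log2(CPM + 1) was 0.90 over 12 libraries and Spearman's rho was 0.8. Pearson's r was 0.82 without the 2 libraries farthest from the median and 0.88 within groups. MiR-142-3p was at 250 ± 127, 312 ± 109, 149 ± 77.1 and 219 ± 61.8 normalised CPM in feeding and after 1, 3 and 7 days, so it too was lowest at 3 days. Next came miR-20b at r 0.76 and miR-17-5p at r 0.73. As the most alike of 136, these carry no p.

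The 3 tested leukocyte markers, miR-150, miR-142-3p and miR-142-5p, were listed above 0 and summed to 3843 to 6105 normalised CPM in the feeding group. They summed to 5991 to 8103 after 1 day, 1560 to 5664 after 3 days and 5659 to 5900 after 7 days. The correlation of this sum with miR-148a-3p was 0.69 over 12 libraries and 0.70 without 7-day replicate 1. Most of the sum was miR-150, at 4983 normalised CPM on average, and it includes miR-142-3p, picked above as most alike. At 1 day against feeding the markers, in the order above, differed by 0.51, 0.32 and 0.26 on the log2 scale, and miR-148a-3p by -0.04. At 3 days they differed by -0.58, -0.75 and -0.8, and miR-148a-3p by -0.59. At 7 days the values were 0.22, -0.19 and -0.16, and -0.18 for miR-148a-3p. With the sums of all other lists, miR-148a-3p had correlations from -0.45 (mesenchyme) to -0.10 (pancreas and liver) without 7-day replicate 1. The part of leukocytes in the levels of miR-148a-3p was not tested.

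MiR-148b-3p and miR-152 were most like microRNAs that were also low in 7-day replicate 1. For miR-148b-3p these were miR-425-5p, let-7i and miR-27b-3p, each at r 0.97 over 12 libraries and at 0.72, 0.71 and 0.76 over 11. Without the 2 libraries farthest from the median of miR-148b-3p, they were 0.60, 0.49 and 0.54. For miR-152 they were let-7c, miR-20a and miR-345-5p, at 0.93, 0.92 and 0.92 over 12 libraries but 0.07, -0.05 and -0.06 over 11. Without the 2 libraries farthest from the median of miR-152, they were 0.63, -0.19 and 0.11. The likeness of miR-152 over 12 libraries thus depended on which libraries were kept, and that of miR-148b-3p was weaker with fewer libraries. Over 11 libraries, miR-148b-3p had an r of 0.71 with the sum of the gut epithelium markers, 0.77 with the general epithelium marker miR-429 and 0.55 with the sum of the mesenchyme markers. It had an r of 0.85 with the sum of the milk-abundant list and 0.85 with that of the cholesterol and lipid list. These lists hold let-7i and miR-27b-3p, picked above as most alike, so the sums are not independent of that pick. Its r was 0.61 with the DNA methylation list, -0.14 with smooth muscle and -0.29 with leukocyte markers. It was -0.07 with red blood cell markers and -0.23 with pancreas and liver markers. The corresponding values of miR-152 ran from -0.39 to 0.17. The part of these cell types in the level of miR-148b-3p was not tested.

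**Figure D5:**
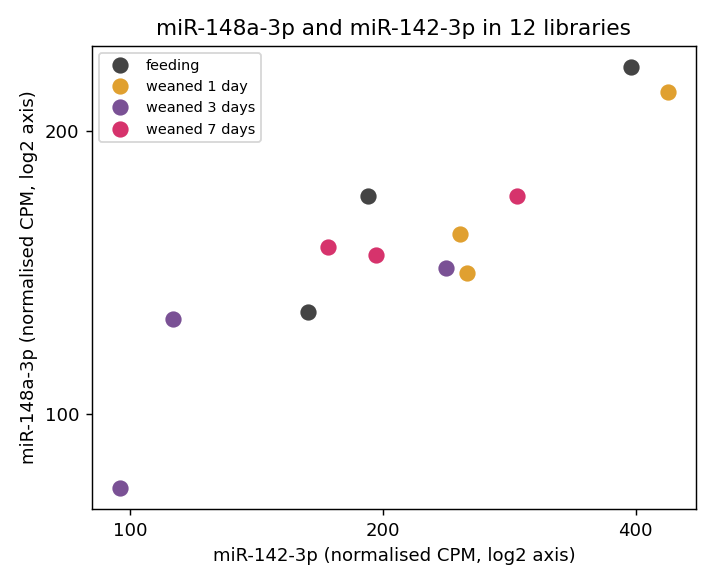
Normalised CPM of miR-148a-3p against that of miR-142-3p (log2 axes), with 1 point per library coloured by group. Libraries high for one microRNA are high for the other (r 0.90 over 12 libraries), and the lowest point of both is in the 3-day group.

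Other microRNAs linked to the same settings gave no called member in any comparison. Of 19 milk-abundant microRNAs tested, 10 were higher and 9 lower after 1 day than in feeding, 8 and 11 after 3 days, and 1 and 18 after 7 days, none passing the test. Their median log2 difference at 7 days was -0.49, against 0.32 over all small RNAs and -0.24 over known microRNAs. Their summed level was 167600 normalised CPM in 7-day replicate 1, 193400 and 278900 in the other 7-day libraries, and at least 263000 in each library of the other groups. Without 7-day replicate 1, 2 were higher and 17 lower, with a median of -0.24 against -0.10 over known microRNAs. MiR-148a-3p, which is on this list, had a log2 difference of -0.18 with all libraries and -0.16 without 7-day replicate 1.

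Among 6 other microRNAs with reported targets in DNA methylation enzymes, the most abundant were miR-126-3p at 13750, miR-29a at 1840 and miR-342 at 958.9 normalised CPM. After 7 days all 6 were lower than in feeding, with a median log2 difference of -0.38 against -0.24 over known microRNAs and none passing. With 7-day replicate 1 left out, 5 were lower and 1 higher, with a median of -0.14 against -0.10 over known microRNAs. Among 6 microRNAs of cholesterol and lipid control, led by miR-27b-3p at 6722, miR-27a at 5970 and miR-128 at 930.8 normalised CPM, 5 were lower and 1 higher, with a median of -0.63 against -0.24 over known microRNAs and none passing. Their summed level was 4240 normalised CPM in 7-day replicate 1, 10190 and 13400 in the other 7-day libraries, and at least 13820 in each library of the other groups. Without 7-day replicate 1, 4 were lower and 2 higher, with a median of -0.30 against -0.10. The cell type marker lists also had no member past the threshold. At 7 days against feeding, 0 of 4 gut epithelium markers, 0 of 1 general epithelium, 3 of 5 mesenchyme, 2 of 4 smooth muscle, 1 of 3 leukocyte, 2 of 3 red blood cell and 1 of 2 pancreas and liver markers were higher. These counts were 0, 0, 4, 3, 1, 3 and 2 without 7-day replicate 1.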

How the data were processed

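Small RNA libraries of pig small intestine were read as deposited counts and TPM per identifier, per the file headers. Within 0.005, the deposited TPM equals the CPM of each list and has no length term. Build Sscrofa11.1 comes from the submitters' processing notes. Aligner, counter and the rule for reads with several matches: not given in the sources used here. Unlisted identifiers were entered as 0, and 8 names listed more than once, none a family member, were summed. The 3 totals naming no small RNA (exon, intron, intergenic, 19.96% to 62.17% of a library) were left out, which left 10453953 to 21031457 counts per library. PCR copies are not told apart.

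Counts were tested with edgeR 4.0.16 (R 4.3.3): filterByExpr (minimum count 10, minimum total 15), TMM factors, 1 fit of 4 group means over 12 libraries, and the quasi-likelihood test, two-sided. P-values were Benjamini-Hochberg adjusted over the 2453 tested small RNAs in each of 7 contrasts and the test among groups, with a threshold of 0.05. Alternatives were other scalings, no filter, known microRNAs alone, only the groups compared, repeated names by their first entry, each library left out, DESeq2 1.42.0 and limma 3.58.1. Scripts were tested on simulated counts for 7 days against feeding, with 1967 small RNAs tested. Of 100 true 2-fold changes 7 were recovered, and of 100 true 4-fold changes 66, with 5 false calls. The simulated spread was smaller than that estimated over all small RNAs, a biological coefficient of variation of 129%. List counts without 7-day replicate 1 were added after seeing the data.

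Members and lists (milk-abundant, DNA methylation enzymes, cholesterol and lipid, and cell type markers) were chosen with earlier results of these data known. MicroRNAs named are the members and their other arms, the 3 known microRNAs of at least 100 normalised CPM most correlated with each, its neighbours in level, and the 3 most abundant of each list; the cell type markers are named only where a result uses them.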

Additional observations from a re-analysis of the deposited data

How the results depend on the processing

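No member was called in any fit: the lowest adjusted p over the results as reported and 498 alternatives was 0.393, and 39 alternatives turned direction, all for log2 differences within 0.53 of 0. The numbers of small RNAs called at an adjusted p under 0.05, 1 at 7 days against feeding and 0 in the other comparisons as reported, depended on the tool. By edgeR at an unadjusted p under 0.05 there were 74 to 247. In the order 1, 3 and 7 days against feeding, 3 against 1, 7 against 1 and 7 against 3 days, all weaned against feeding, and among groups, DESeq2 called 21, 34, 42, 29, 57, 17, 28 and 40. Without a filter the counts were 23, 56, 146, 47, 149, 127, 41 and 273. Limma called 2 (7 days against feeding), 2 (7 against 1), 1 (7 against 3) and 2 (among groups). Known microRNAs alone gave 2 (7 days against feeding), 1 (7 against 1), 1 (7 against 3), 1 (all weaned) and 1 (among groups). Without 7-day replicate 1 as well, a setting chosen after seeing the data, they gave 7 (7 days against feeding), 7 (7 against 1), 4 (7 against 3), 2 (all weaned), 6 (among groups) and 1 (3 against 1). Size factors of DESeq2 gave 1 for all weaned and 1 among groups, and the deposited library total or only the groups compared gave 0 at 7 days against feeding. The cause was not tested. Log2 differences that turned were, for 1 day against feeding, miR-148a-3p at 0.066 and miR-148b-3p at 0.16 by the deposited total, and miR-152 at -0.056 (size factors of DESeq2), -0.056 (DESeq2), -0.067 (known microRNAs), -0.0082 (groups compared) and -0.11 (the added setting). For 7 days against feeding they were miR-148a-3p at 0.11 (known microRNAs), and miR-152 at 0.14 (deposited total) and 0.40 (added). For 7 against 1 day they were miR-148a-3p at 0.29 (known microRNAs) and 0.20 (added), and miR-152 at 0.51 (added). The others were miR-148b-3p at -0.19 for 3 against 1 day (deposited total), miR-152 at 0.10 for 7 against 3 days (added), and miR-152 for all weaned at -0.049 (size factors of DESeq2), -0.049 (DESeq2) and -0.14 (limma). Leaving out each library in turn gave, for miR-148a-3p, -0.26 to 0.21 at 1 day, -0.39 to 0.048 at 7 days and -0.28 to 0.056 for 7 against 1 day. For miR-148b-3p it gave -0.22 to 0.079 at 1 day, -0.12 to 0.078 at 3 days and -0.092 to 0.21 for 3 against 1 day. For miR-152 it gave -0.18 to 0.15 at 1 day, -1.11 to 0.26 at 7 days (without 7-day replicates 3 and 1), -1.16 to 0.21 for 7 against 1 day and -0.25 to 0.20 for all weaned. Calls at 7 days against feeding ran from 0 (without 7-day replicate 2) to 1. MiR-148b-3p at 7 days against feeding ran from -1.31 without 7-day replicate 2 to -0.40 without replicate 1. MiR-152 for 7 against 3 days ran from -1.40 to -0.04. The lowest count of a member, 209, had a 95% Poisson interval of 181.6 to 239.3. No paired analysis was possible because the labels give the groups no shared replicate number, and numbers given in accession order do not pair libraries.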
